A study of Drosophila melanogaster with 2 samples.

Results

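The gene described here is sbb (scribbler, FBgn0285917), 1 of 13968 protein-coding genes, in a chromatin immunoprecipitation and sequencing (ChIP-seq) experiment on whole Drosophila melanogaster embryos aged 0 to 24 h. The embryos came from transgenic flies that carry danr, the pipsqueak-domain gene distal antenna-related, fused to eGFP, and the fusion protein was recovered with an antibody against GFP. The 2 biological replicates, each with 1 technical replicate, form 1 group, and no second genotype, stage or treatment was part of the series. Neither the promoter of the transgene nor the cells that express it are labelled, and values from whole embryos do not separate cell types. The gene was chosen by its high number of regions in these same lists. The region counts, positions, signals, replicate support and density below therefore describe the gene, and no test was applied to them.

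The gene sbb encodes a nuclear transcriptional corepressor that is also known as Brakeless and as master of thickveins. In the embryo it acts with the nuclear receptor Tailless and with Atrophin (gene Gug) to repress the gap genes Kr and kni, in the eye it represses run in photoreceptors whose axons stop in the lamina, and in the wing it lowers expression of the Dpp receptor gene tkv. Larvae with reduced sbb function show altered crawling paths, from which the name scribbler comes. Corepressors are brought to target genes by DNA-binding proteins, and the pipsqueak domain of danr is a DNA-binding domain.

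The peak lists are in dm6 coordinates. On this assembly sbb lies on chromosome arm 2R from 18278198 to 18357296, on the minus strand, and is 79.1 kb long. Of its 7 annotated transcripts, 5 begin at the upstream start site at 18357296 and 2, sbb-RC and sbb-RH, begin 68535 bp further downstream at 18288761. The longest intron, 49.4 kb, follows the most upstream exons and makes up 62.4% of the gene. The next intron is 16.2 kb, and the remaining exons and short introns lie together in the last 11.7 kb. Regions were counted if their summit lay from 5 kb upstream of sbb to its end, a window of 84.1 kb.

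In this window the thresholded series list held 10 regions out of 2653. Of all protein-coding genes, 24.2% had at least 1 region in the window drawn the same way. The conservative list held 10 sbb regions, where 20.1% of genes had 1 or more, the list of replicate 1 held 7 (16.7% of genes) and that of replicate 2 held 9 (16.4%). A region is a peak past the authors' threshold, or a set of overlapping peaks joined. The threshold is a score of 830, which stands for an irreproducible discovery rate of 0.010 (IDR, low where a peak ranks alike in repeated peak calls). All 10 had the top score of 1000. Of their summits, 8 lay in the longest intron, 1 in the second longest intron and 1 in the promoter. None lay in an exon of sbb or in its last 11.7 kb. Over the whole series 37.3% of the regions were intronic and 46.5% were promoter regions, the second class meaning at most 500 bp from summit to start site.

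**Figure D1:**
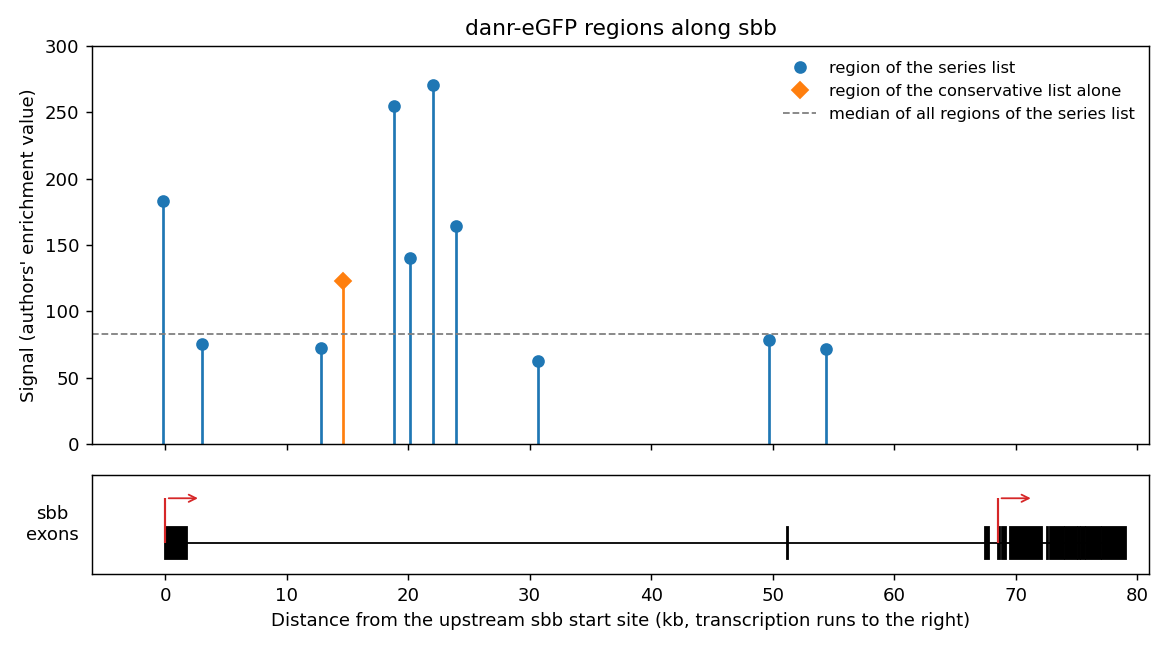
Signal (the authors' enrichment value, vertical axis) of each region against the distance of its summit from the upstream sbb start site in kb, with the exons and the 2 start sites (red arrows) drawn below. Circles are the 10 regions of the series list, the diamond is a region found in the conservative list alone, and the dashed line is the median of all regions (82.8). The 4 strongest intronic regions stand within 5.1 kb of each other, and no region lies near the downstream start site.

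The promoter region reached from 18357274 to 18357617, with its summit 150 bp upstream of the start site of the long transcripts. Its signal was 183 in the series list, 105 in replicate 1 and 77.6 in replicate 2. It ranked 355 of 2653 regions and 234 of the 1224 promoter regions, whose median signal was 91.2. At the downstream start site no region was found, and the nearest summit of the series list was 14106 bp away. Within 500 bp of that site replicate 1 had 3 ranked peaks of any score, with a signal of at most 19 and a score of at most 37, and replicate 2 had none.

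The strongest regions lay together in the longest intron. The highest, from 18335196 to 18335363 and 22007 bp downstream of the start site, had a signal of 270.3 in the series list, 126 in replicate 1 and 136 in replicate 2. The next, from 18338408 to 18338543 and 18810 bp downstream, had a signal of 255, with 125 in replicate 1 and 126 in replicate 2. These ranked 158 and 182 of all regions, and 33 and 40 of the 981 intronic regions of the series. Both were above 215, the level exceeded by 1 in 10 regions. The replicates gave nearly equal signals at both, and their summits lay 4 and 3 bp apart.

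A further pair of strong regions lay between and just beyond them. The region from 18333203 to 18333546, 23921 bp downstream, had a signal of 164, with 99.6 in replicate 1 and 64.2 in replicate 2. The region from 18336997 to 18337340, 20127 bp downstream, had a signal of 140.0, with 91 in replicate 1 and 53.7 in replicate 2. Replicate 1 was the higher one at both. The summits of these 4 regions spanned 5.1 kb, and the gaps between neighbours were 1317, 1880 and 1914 bp. All 4 were in the thresholded list of each replicate.

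The other 5 intronic regions were weaker, with signals from 63 to 78.5, under the median of 82.8 for all regions, and each missed the thresholded list of at least 1 replicate. The region from 18354046 to 18354389, 3078 bp downstream of the start site, had a signal of 75.8 and rested on replicate 1. Its signal there was 57.2 at a score of 1000, against 18.3 at a score of 26 in replicate 2, and it was the only one of the 10 regions that the conservative list lacked. The region from 18344319 to 18344863, 12805 bp downstream, was joined from 2 overlapping peaks and had a signal of 72.5. Neither replicate had it past the threshold, and its signal was 40.9 in replicate 1 and 35.8 in replicate 2.

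The remaining 3 were past the threshold in replicate 2 alone. The region from 18326473 to 18326816, 30651 bp downstream, had a signal of 63, with 26.7 in replicate 1 and 45.1 in replicate 2. The region from 18307439 to 18307782, 49685 bp downstream, had a signal of 78.5, with 41.5 in replicate 1 and 37.7 in replicate 2. The last, in the second longest intron from 18302695 to 18303038 and 54429 bp downstream, had a signal of 71.5, with 41.4 in replicate 1 and 38.7 in replicate 2. At the last 2 the signal was slightly higher in the replicate whose thresholded list lacked them, at scores of 387 and 646 against 1000 in replicate 2.

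An eleventh region was left out of the series list by a small margin. It reached from 18342480 to 18342823, 14644 bp downstream of the start site, and had a signal of 123, with 80.1 in replicate 1 and 47.8 in replicate 2. Its score was 810 in the ranked list behind the series list, an IDR of 0.011, but 1000 in each replicate and in the conservative list. Of the 2088 regions of the conservative list, 114 had no counterpart in the series list, which is 5.46%. The sbb region was the only one of these 114 that was in the thresholded lists of both replicates, and it had the highest signal among them, against their median of 57.6. This comparison was chosen after its values were seen. Below it, the next highest score in the sbb window was 421, at a peak of signal 41.3 located 0.956 kb downstream of the start site.

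**Figure D2:**
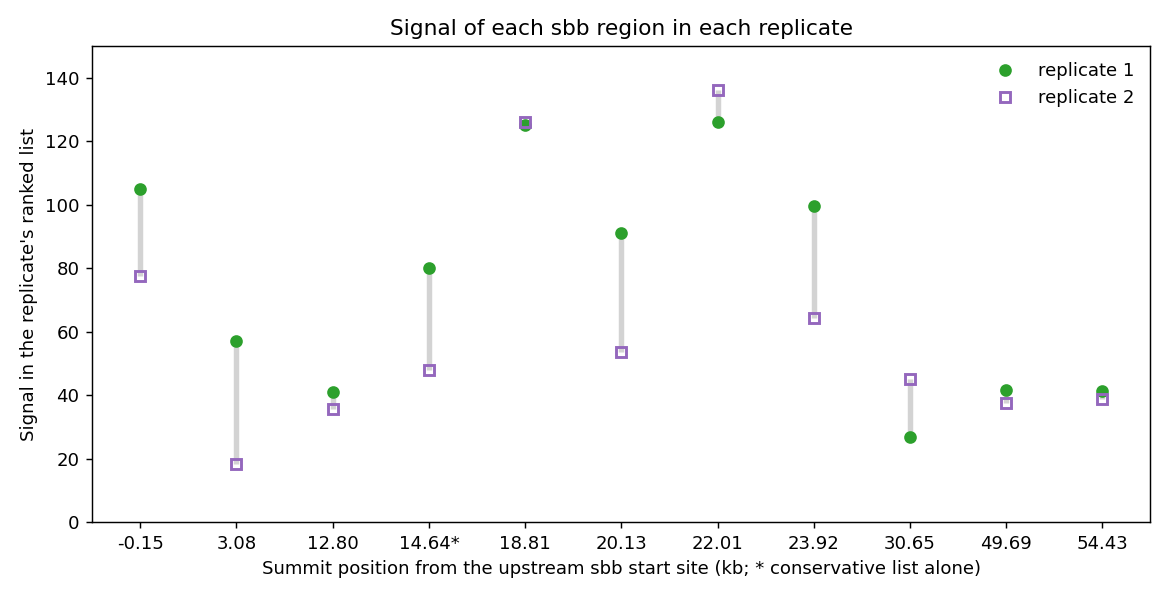
Signal of the 11 sbb regions in the ranked list of replicate 1 (filled circles) and replicate 2 (open squares), ordered by distance of the summit from the upstream start site in kb. The asterisk marks the region of the conservative list alone. By ratio the replicates are closest at 18.8 kb, where replicate 2 is 1.01 times replicate 1, and farthest apart at 3.08 kb, where replicate 1 is 3.13 times replicate 2.

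Support by replicate was as follows. Of the 10 regions, 6 overlapped a region of the thresholded list of replicate 1, 8 one of replicate 2, 5 one of each, and 9 one of the conservative list. Over all regions 58.3% were in the list of replicate 1, 56.5% in that of replicate 2, 39.9% in both and 74.4% in the conservative list. Among the 1792 other regions whose signal lay in the range spanned by sbb, 50% were in both and 89.3% in the conservative list. The sbb counts of 5 and 9 of 10 were thus near the shares of these 1792 regions. Those regions were matched by signal range alone, and 10 regions are too few to show that the shares are the same. With peaks of any score counted, all 10 were found in both replicates, as were 2487 of all 2653 regions.

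The signals of the 10 regions were within 2-fold of each other between replicates at 9, against 85.3% of the 2487 regions of the series with a peak in each replicate. The median ratio of replicate 2 to replicate 1 was 0.891 at sbb and 0.948 over those 2487 regions. Spearman's rho between replicates was 0.79 over the 10 sbb regions and 0.59 over the 2487 regions, given as a description, since regions of 1 library share its depth and are not replicates.

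In the ranked list behind the series list, peaks of any score were spread over the gene far more evenly than the regions. This list held 103 peaks in the window, or 12.2 per 10 kb, against 9.8 over the 7 chromosomes. Replicate 1 held 68 and replicate 2 held 63. Upstream of the midpoint of the gene body 53 ranked peaks and 7 regions were found, and downstream of it 49 ranked peaks and 2 regions. The ranked lists of the replicates were less even, with 42 peaks upstream and 25 downstream in replicate 1. In replicate 2 there were 37 and 25. In the last 11.7 kb, which hold most exons, there were 19 ranked peaks and no region. Of the 103 peaks, 11 (10.7%) had a score of at least 830 before overlapping peaks were joined, against 2.12% of all ranked peaks of the series. The median signal of the ranked peaks was 14.7 at sbb and 15.3 over the list.

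**Figure D3:**
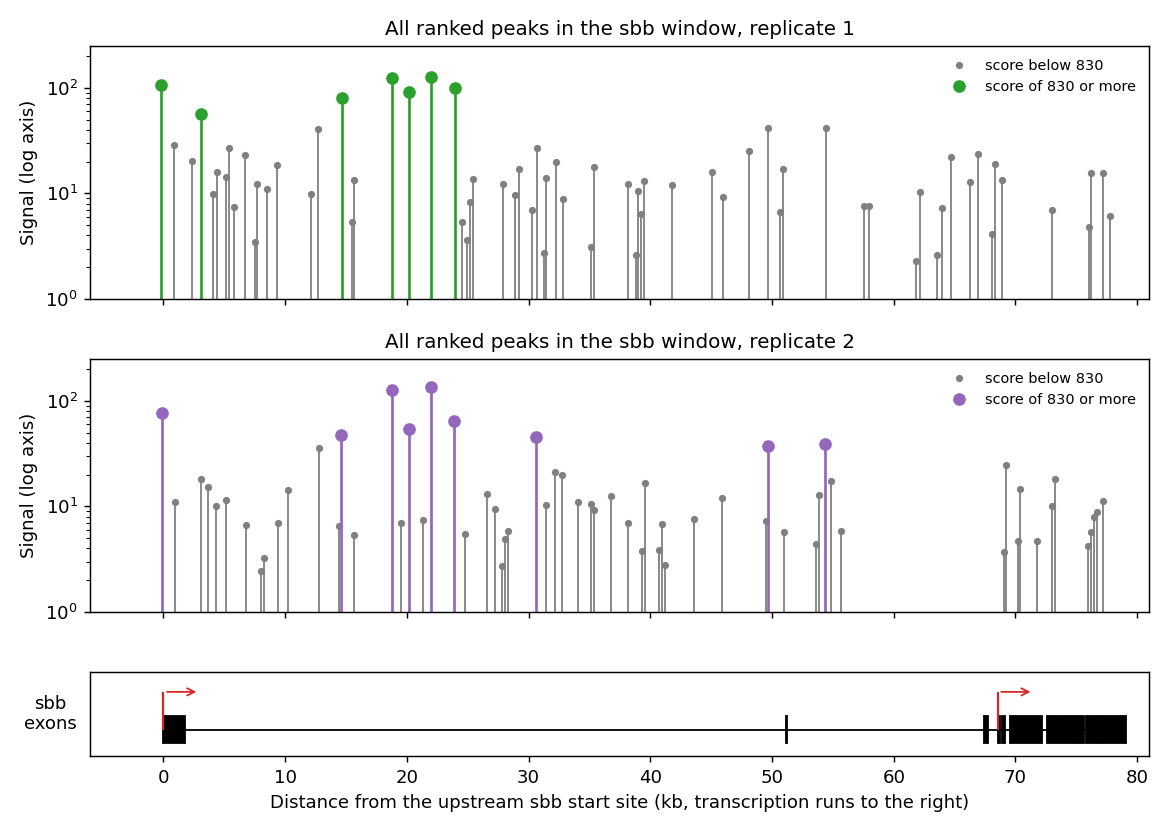
Every ranked peak in the sbb window in replicate 1 (above) and replicate 2 (below), by distance from the upstream start site in kb and signal on a log axis, with the exons at the bottom. Coloured circles have a score of 830 or more (7 peaks in replicate 1, 9 in replicate 2) and grey dots a lower one. Low peaks run along most of the gene. Those past the score limit reach from the promoter to 23.924 kb downstream in replicate 1 and to 54.369 kb in replicate 2.

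Density was compared with the 151 other protein-coding genes whose length was within 25% of that of sbb, from 59.3 to 98.9 kb. The gene sbb had 1.19 regions per 10 kb of window, and the other genes had from 0 to 1.2 with a median of 0.117. Of the 151 genes, 54.3% had a region at all, 31 had 1 region, 26 had 2 and 10 had 5 or more. In the conservative list 45.7% of them had a region, and in the lists of replicates 1 and 2 39.7% each. Only Tlk, which encodes the tousled-like chromatin kinase, was as dense, with 9 regions in a shorter window. In the conservative list and in replicate 2 alone sbb was the densest of the 152 genes, at 1.19 and 1.07, and in replicate 1 alone it came after Tlk, at 0.832. Over the 7 chromosomes the regions averaged 0.191 per 10 kb, 6.21 times less than in the sbb window. In ranked peaks of any score sbb stood only 24 of 152, with 12.2 per 10 kb against a median of 10.9. Some genes without a region had few peaks of any score, with 0 in stol, 9 in nAChRalpha4 and 18 in kl-2 on Y. The count was 103 in sbb, and the median of the other genes was 84.

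**Figure D4:**
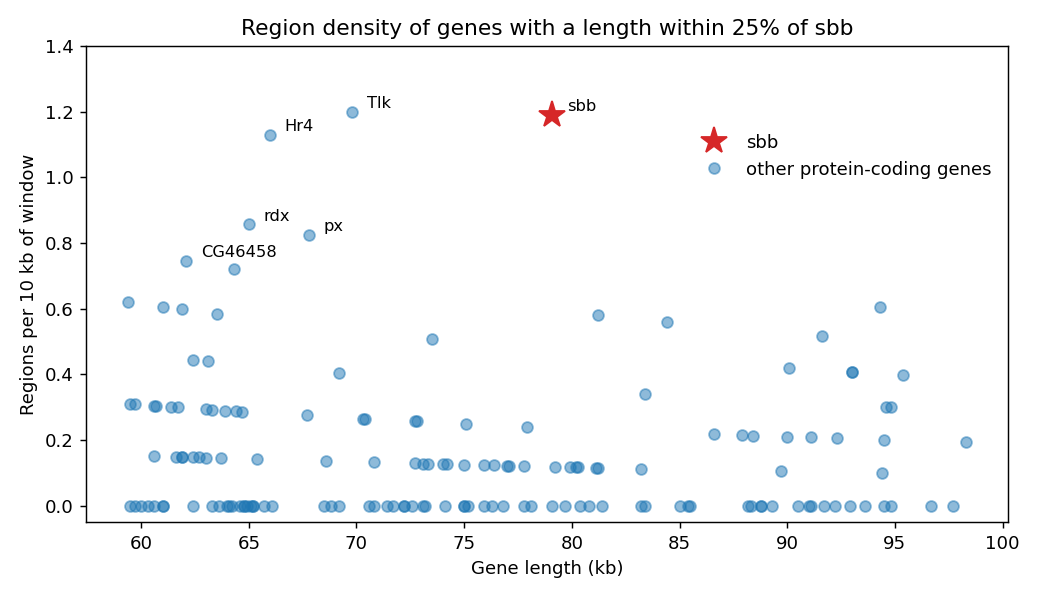
Regions per 10 kb of window (vertical axis) against gene length in kb for sbb (star) and the 151 other protein-coding genes of similar length (circles). The gene sbb at 1.19 and Tlk at 1.2 stand at the top, Hr4 follows at 1.13, and 69 genes lie at 0.

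The genes most like sbb in density, measured as the smallest difference in regions per 10 kb in the series list with 1 value per gene, were Tlk, Hr4 and rdx. Hr4, a nuclear receptor gene of the ecdysone response, had 8 regions at 1.13 per 10 kb, and rdx, which encodes an adaptor for protein degradation, had 6 at 0.857. The next were px (plexus, a gene of wing vein patterning) with 6 regions at 0.825 and CG46458 with 5 at 0.745. Median signals were 109 for sbb, 119.8 for Tlk, 108 for Hr4, 106 for rdx, 58.6 for px and 62.6 for CG46458. Intronic regions were 9 of 10 in sbb, 9 of 9 in Tlk and 7 of 8 in Hr4. They were 4 of 6 in rdx, 4 of 6 in px and 5 of 5 in CG46458. In replicates 1 and 2 alone sbb had 7 and 9 regions, Tlk 7 and 7, Hr4 4 and 6, rdx 5 and 3, px 3 and 3, and CG46458 0 and 2. The replicate order is thus not the same from gene to gene.

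The longest intron was set beside other introns as a description, since its 8 regions are among those for which sbb was chosen. Among 117 introns of protein-coding genes with a length within 25% of it, it ranked 1, with 8 regions or 1.62 per 10 kb. Of the other 116, 26.7% held a region, and the densest was in Raf, with 6 regions at 1.37 per 10 kb. The introns of rdx and CG46458 followed, with 5 and 4 regions. An intron shared by overlapping genes was counted for each gene, and introns on Y, none with a region, were included.

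By number of regions alone, without regard to length, sbb shared place 3 of all protein-coding genes with CHES-1-like, a forkhead gene, at 10 regions. CG1677 and kirre, a muscle adhesion gene, had 11 each and Tlk had 9. CG1677 is 124.7 kb long, kirre 394.1 kb and CHES-1-like 27.0 kb, so their densities were 0.848, 0.276 and 3.12 per 10 kb. Of these 5 genes sbb was the only one on an autosome, and the other 4 are on X.

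Other genes lie within the sbb window, and none of these 9 held a summit. The short genes CG14502, CG18536, CG18537, CG18538, CG18539, CG18540, CG14505 and Tango8 overlap the gene, and pen-2, which encodes a subunit of gamma-secretase, overlaps the end of sbb. The closest was CG14505, with the weak region 54429 bp downstream reaching 94 bp into its end and the summit 78 bp outside it, 1110 bp from its start site. Each of the 4 strongest intronic regions was at least 21553 bp from the start site of every one of these genes. Outside the window the nearest region on the side of the promoter was 20.7 kb away, from 18377843 to 18378186 with a signal of 81, beyond which the immune-induced gene BomT1 lies. On the other side the nearest was 106 kb away, at the promoter of Dgp-1, with a signal of 43.6, and Ote, which encodes an inner nuclear membrane protein next to sbb, held no summit. The sbb window makes up 0.333% of arm 2R and held 2.08% of its 480 regions.

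The summit windows of sbb resembled other regions in base composition. Over 50 bp either side of the summit the A+T content ranged from 58.4% to 82.2% with a median of 69.8%, against a median of 68.3% over all 2632 regions on the 7 chromosomes (quartiles 61.4% and 73.3%). The longest intron as a whole had 60.1%. Motifs were searched on both strands, and matches of different motifs can share bases. The TATA box core TATAAA occurred in 2 of 10 windows, against 23.2% of all regions. TAATTA, a homeodomain core, was in 1 of 10 against 9.5%, ACAAT, the Sox core, in 4 of 10 against 30.9%, and GAGAG, of the GAGA type, in 0 of 10 against 9.08%. With 10 windows, counts this close to the shares over all regions do not set sbb apart.

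Genes that act with or under the sbb protein were looked up in the same lists. Of Gug, tll, Kr, kni, run and tkv, only Gug had a region in its window, which is 1 of 6 against 24.2% of all protein-coding genes, and none had a summit at most 1000 bp from a start site, against 13.4%. With 6 genes these counts are near the shares of all genes. The region in an intron of Gug, from 8458276 to 8458410 on 3L, had a signal of 276, with 135 in replicate 1 and 136 in replicate 2. A second one, 4799 bp upstream of Gug and within CG6983, had a signal of 54.9 and was past the threshold in neither replicate. The receptor gene tkv is 52.4 kb long and held none, whereas tll, Kr, kni and run are from 2.1 to 6.7 kb long.

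Among 11 other corepressor genes, Gug included, 6 had a region in the window, against 24.2% of all protein-coding genes, and 2 had a summit at most 1000 bp from a start site, against 13.4%. Those 2 were gro, the Groucho corepressor gene, with a signal of 222 in the series list, 91.1 in replicate 1 and 134 in replicate 2, and ebi, which encodes a TBL1-type corepressor subunit, with 178, 59.9 and 113. Smr, the SMRTER corepressor gene, had 2 intronic regions with signals of 145 and 132. Mi-2, a nucleosome remodeller gene, had 2 with 218 and 56.3, both also within Su(Tpl). The region counted for HDAC1, the histone deacetylase gene, had a signal of 139 and lay within Src64B, 1826 bp upstream. CtBP, Sin3A, CoRest, Su(var)3-3 and H had none. The median length of these 11 genes was 9 kb, and none of them had more than 2 regions. The share of 24.2% covers genes of every length, while 54.3% of the 151 genes of a length like that of sbb had a region. The 11 genes, from 2.7 to 58.4 kb long, were not compared with genes of like length, and so few genes limit the comparison.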

How the data were processed

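The authors deposited 8 peak lists on dm6, per the labels, namely a ranked and a thresholded list for each replicate, for the series and for a conservative set. The score, in the deposited lists, is a transform of the IDR, and the deposited −log10 of the IDR in the ranked lists was used only to check it. The signal is the authors' deposited enrichment value, and the summit offset gave positions. Aligner and peak caller are not given in the sources used. No list holds read totals, so depth is unknown and no counting interval was computed. The labels name control libraries, not analysed here.

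Overlapping rows (1 bp or more) of a list were joined, and the row of highest signal gave summit and signal. The signal in a replicate is that of its strongest overlapping ranked peak. Genes came from Ensembl release 115, in dm6 coordinates, without transposable elements, on 7 chromosomes. Summits farther than 500 bp from a start site were classed by exon first, then intron, then intergenic. Named genes were sbb, genes in its window and next to it, the 5 genes with most regions, among genes of similar length the 5 densest and the 3 most alike, and the members of 2 lists (genes that act with Brakeless, corepressors). The gene and the lists were chosen with earlier results of these data known. Python 3.11.15, pandas 2.3.3 and numpy 2.4.6 were used, and joining, counting and distances were tested on simulated regions. Alternatives covered the list, each replicate alone, the score, joining, the window, length range and distances.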

Additional observations from a re-analysis of the deposited data

How the results depend on the processing

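Each of 7 values for sbb was recomputed under alternatives, 52 in all, of which 39 stayed within a set limit. The limit was 1.5 times for the count and the exact binomial 95% interval for the share in both replicates. For the others it was 1 SD of the 2 replicates. The tally depends on these limits, since without replicate 2 the count of 7 stayed within its limit and the density of 0.832 did not. The limit of 1 SD also came from the 2 replicates that were judged as alternatives. Some alternatives could not change a value. All 10 regions had a score of 1000, so with a score of 1000 only, every value but the density rank was fixed. The promoter summit, 150 bp from its start site, could not leave the promoter class at a distance of 250 bp. The binomial interval treats the regions as independent, which regions of the same libraries are not. With either replicate alone the count was 7 to 9, the density 0.832 to 1.07 per 10 kb, the median signal 53.7 to 99.6, the intronic share 85.7% to 88.9%, the promoter share 11.1% to 14.3% and the density rank 1 to 2. At each of the 10 regions the signal was higher in the series list than in either replicate. The replicate medians, which also cover other sets of regions, are thus not on the scale of the 109 of the series list. With the gene body alone, which leaves out the upstream promoter summit by construction, the intronic share was 100% and the promoter share 0%. With any ranked peak of a replicate counted, 100% of the sbb regions were in both replicates, as were 2487 of all 2653 regions. The density rank was 1 in the conservative list, with a score of 1000 only, with the series and conservative lists joined (chosen after seeing the data) and among the 54 genes within 10% of the length, and 3 among 410 genes within 50%. Tlk, the only gene ahead of sbb in the series list, is 69.8 kb long and thus outside the range of 10%. In the conservative list Tlk had 0.936 regions per 10 kb against 1.19 for sbb. Beyond this, the cause of the changes of rank was not tested. No paired analysis was possible because the replicates form 1 group. Read depth is unknown, and 10 regions from 2 libraries limit every share.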

Other observations

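The 2 strongest sbb regions were also narrow, 168 and 136 bp wide, against a median width of 344 bp over all regions. Of all 2653 regions, 144 (5.43%) were narrower than 200 bp, and of the strongest 200 regions 88 were. Both strong sbb regions belong to those 200.

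The 5 kb upstream of sbb held 1 ranked peak of any score in the series list and in each replicate, the one at the promoter. The annotation places a jockey element from 1168 bp upstream of the start site to beyond the window, which covers 3833 bp of it, and no ranked peak lay in this part in any of the 3 lists. Its part in the low number of peaks there was not tested.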
